A study of Gallus gallus with 4 samples.

Results

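In broiler breast muscle, 48 of the 4046 genes named on the microarray had nearly the same reading in both dyes on most arrays. Their deposited ratio between birds of high and of low feed efficiency was close to 1 on at least 3 of the 4 arrays. This is called a ratio of 1 below. The members were chosen by this reading alone: a gene entered when at least 1 of its features had a deposited log2 ratio within 0.005 of 0 on at least 3 of the 4 arrays and when no other feature of the gene had a value on all 4 arrays. Such features numbered 160 of 45220 (0.354%). They belonged to 56 genes (1.38% of those named) and, after the 8 genes with another complete feature were left out, to the 48 members (1.19%). These shares come from the rule, and nothing is read from them. A spot at the upper limit of the scanner in both dyes gives a ratio of 1, and the genes were read in that way as among the most abundant transcripts. The reading is an inference, since the brightness of single dyes was not analysed here. The values carry no measured ratio, and it cannot be said from them whether a member differed between the birds. How soon a spot reaches the limit also depends on its probe, so the members cannot be ranked by abundance.

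The study asked which transcripts in breast muscle go with feed efficiency, the weight gained per unit of feed. Male broilers of 1 line were caged and fed singly and received no treatment. Their diet, based on corn and soy, held about 20.5% protein and 3280 kcal per kg, and their gain and intake between weeks 6 and 7 defined the efficiency. Each of 4 two-colour arrays held breast muscle RNA of low feed efficiency in Cy3 and of high feed efficiency in Cy5, and 0 arrays were dye-swapped, which means that a dye effect and a group effect cannot be told apart. The design gives 4 muscles of each kind, which was read as 1 bird per channel. Between 39376 and 40278 features per array had a measured value, and their deposited medians were -0.19, -0.49, -0.58 and -0.52 on arrays 1 to 4.

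Breast muscle of the chicken is a white muscle built almost wholly of fast fibres that draw on glycogen and phosphocreatine for short bursts of work. Such fibres hold large amounts of the enzymes that turn glycogen into lactate, of contractile proteins, and of the proteins that store calcium in the sarcoplasmic reticulum and release it at each contraction. In any growing tissue the messenger RNAs of ribosomal proteins are also plentiful.

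Ribosomal proteins were the largest group among the 48 genes as the roles were merged here. Groups for energy metabolism and for the sarcomere and its calcium stores were similar in size to each other. By the role of their products, 14 (29.2%) were ribosomal proteins and 3 were counted under translation. Another 12 served glycolysis, glycogen, phosphocreatine or purine nucleotides. The group of sarcomere, Z-disc and calcium genes held 11 (22.9%), not all of which build these structures. The rest were 3 inner membrane proteins of mitochondria and 5 genes with other roles. These roles were assigned and merged by hand after the members were known. The order of the groups depends on this merging, for instance on keeping the mitochondrial proteins apart from energy metabolism. Of the gene lists that were used beside them, 41 members were in at least 1 list and 7 in none.

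**Figure D1:**
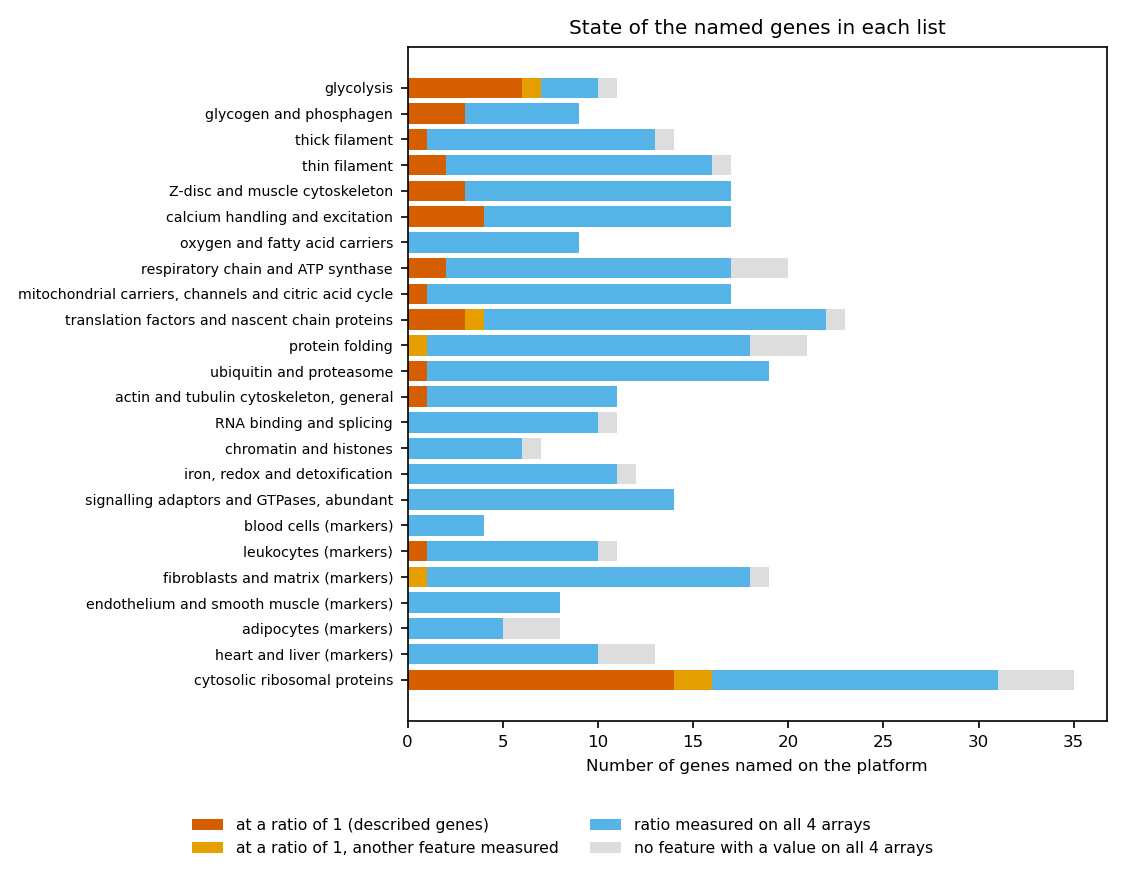
Horizontal bars give the number of platform-named genes in each of the gene lists, split by whether the gene was at a ratio of 1, at a ratio of 1 with another feature measured, measured on all 4 arrays, or without a complete feature. Glycolysis (6 of 11 genes) and cytosolic ribosomal proteins (14 of 35) held the largest shares of described genes.

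In glycolysis, 6 of the 11 genes named on the platform were members, against 1.19% of all named genes. They were GPI, which isomerises glucose 6-phosphate, TPI1 and GAPDH at the level of triose phosphates, PGK1 and PKM2, which form ATP, and LDHA, which makes lactate. GAPDH stood at log2 ratios of -0.002, 0.001, -0.001 and 0.000 on arrays 1 to 4. PGK1 read -0.003, 0.000, -0.001 and -0.001, and TPI1 read -0.002, -0.005, -0.001 and 0.000. All 4 arrays were thus within the tolerance for each of them. GPI, PKM2 and LDHA behaved alike, and the 7 genes of this role, with the gluconeogenic FBP2 added, ranged from -0.005 to 0.001. PFKM, the muscle phosphofructokinase that commits sugar to glycolysis, had a feature at -0.001, -0.002, 0.000 and 0.000 but was left out because a second feature was measured. Only 3 genes of the list, ENO2, LDHB and HK1, had a measured ratio and no feature at 1, and HK2 had no value on all arrays. FBP2, in mammals the muscle form of fructose-bisphosphatase, works against PFKM in the direction of glycogen.

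Glycogen and phosphocreatine were represented by 3 of 9 named genes. PHKG1, the catalytic subunit of the kinase that switches on glycogen phosphorylase, read -0.003, -0.002, -0.001 and 0.000. CKMT2, the mitochondrial creatine kinase of striated muscle, read -0.001, 0.001, -0.001 and 0.000. PGM1, which links glycogen to glycolysis, was different on a single array: it read 0.480 on array 1 and -0.001, 0.000 and 0.000 on the others. Its value on array 1 was the highest of any member. The pair in purine metabolism comprised ADSL, an enzyme of AMP synthesis and of the purine nucleotide cycle of working muscle, and HINT1, a purine phosphoramidase. Both were within 0.002 of 0 on all arrays.

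Among proteins of the sarcomere and Z-disc, 7 genes were at a ratio of 1. TPM1, a tropomyosin that covers the myosin-binding sites of actin, read exactly 0.000 on all 4 arrays, and no other member did so. TNNC1, a troponin C that binds calcium on the thin filament and is known from slow and cardiac muscle, read 0.000, -0.002, -0.001 and 0.000. The feature of TNNC2, the fast-muscle troponin C, had a value on array 1 only, 0.276, and was empty on the other arrays. MYBPH, a myosin-binding protein, read -0.001, 0.000, 0.000 and -0.001. The platform's symbol MYBPH corresponds to MYBPHL in the current RefSeq table.

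At the Z-disc, where thin filaments of neighbouring sarcomeres are joined, the actin cross-linker ACTN2 read -0.002, 0.000, -0.001 and -0.001. ANKRD1, a titin-associated ankyrin protein that responds to stretch, read -0.001, 0.000, -0.001 and -0.001. HSPB1, a small heat shock protein that binds the cytoskeleton, read 0.054 on array 1 and -0.001, 0.001 and 0.000 on the rest. Array 1 alone was outside the tolerance for HSPB1. CMYA5, or myospryn, which binds desmin, completed the 7 genes. In all, members made up 3 of 17 named genes in the Z-disc list, 2 of 17 in the thin filament list and 1 of 14 in the thick filament list.

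Calcium storage and release held 4 of 17 named genes of that list. CASQ2, a calsequestrin that buffers calcium inside the sarcoplasmic reticulum, read 0.118, 0.000, 0.000 and 0.000 on arrays 1 to 4. TRDN, triadin, which ties calsequestrin to the release channel, read 0.063, 0.000, -0.001 and 0.000. SRL, sarcalumenin, another luminal calcium-binding protein, read 0.032, -0.001, 0.000 and -0.001. Array 1 was thus outside the tolerance for these 3 genes, as it was for 10 of the 48 members. CACNG1, a subunit of the voltage sensor in the muscle surface membrane, read -0.001, 0.000, 0.000 and 0.000 and was within the tolerance on every array. These values chose the members, so nothing about the calcium store is read from them.

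By role, 3 members were counted as inner membrane proteins of mitochondria. SLC25A4, the ADP/ATP carrier that predominates in mammalian heart and muscle, read -0.002, 0.000, 0.000 and 0.000. UQCRFS1, the iron-sulphur subunit of complex III, read 0.226, 0.000, 0.000 and 0.001, again high on array 1 alone. NDUFB5, a subunit of complex I, read 0.000, -0.002, 0.000 and 0.000. In the list of respiratory chain and ATP synthase genes 2 of 20 were members, and 1 of 17 in the list of mitochondrial carriers and citric acid cycle enzymes.

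Ribosomal proteins supplied 14 of 35 named genes of their list. The large subunit accounted for 9 of them (RPL3L, RPL4, RPL6, RPL13, RPL21, RPL32, RPL35A, RPLP1 and P0) and the small subunit for 5 (RPS2, RPS6, RPS15, RPS27A and RPSA). P0, the stalk protein now called RPLP0, read 0.000, 0.000, -0.001 and 0.000. RPL13 read 0.183, 0.000, 0.000 and -0.001, RPL4 read 0.202 followed by 0.000 on the other 3 arrays, and RPL32 read 0.024, 0.000, 0.000 and -0.002. Array 1 was again the one that stood apart in these 3 genes of the large subunit. The other 6 large subunit genes were within the tolerance on all 4 arrays. The small subunit genes ranged from -0.001 to 0.001. Among them RPS27A, which encodes ubiquitin fused to a ribosomal protein, read 0.000, 0.001, -0.001 and -0.001. RPS6 is the ribosomal protein phosphorylated downstream of the growth kinase mTOR, and RPSA also serves as a laminin receptor.

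RPL21 was the sole member with a second named feature. Its feature at a ratio of 1 read 0.000, -0.001, 0.000 and 0.000, and the second read -2.503 on array 1 and 0.156 on array 4 and was empty on arrays 2 and 3. The other 47 members had a single feature each, so no second probe of the same gene bears on them.

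Of genes counted under translation, EEF1A2, the elongation factor 1 alpha of mammalian muscle and nerve, read 0.000, -0.001, 0.001 and -0.001. EIF4EBP1, which holds back cap-dependent initiation until mTOR phosphorylates it, read -0.002, 0.000, -0.001 and 0.000. TPT1, the translationally controlled tumour protein, read 0.000 on 3 arrays and -0.001 on array 4. Together these were 3 of 23 named genes in the list of translation factors.

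The remaining 5 members were of mixed roles. CDC42, a small GTPase that organises actin, read 0.034, -0.001, 0.001 and 0.000. MUSTN1 is a small nuclear protein of muscle and skeleton, PARK7 protects against oxidative stress, and TOM1 sorts membrane proteins in endosomes. CD74, the invariant chain of MHC class II molecules, is a product of antigen-presenting leukocytes and read -0.001, -0.002, -0.001 and 0.000. It was the sole member, 1 of 11 named genes, in the leukocyte list. The other 5 lists of markers for blood cells, fibroblasts, vessels, fat, and heart and liver held 0 members, although the matrix protein MGP had a feature at 0.000 on all 4 arrays and was left out for its second feature. Of the 9 leukocyte markers with a measured ratio 2 were lower by the limma test described below (median -0.45), against 6.12% of measured genes. With the values as deposited 8 were lower, a setting in which 1144 of all 3498 measured genes were lower. The part of leukocytes in the reading of CD74 was not tested.

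Few markers of the labelled tissue were named, and a ratio between muscles gives no amount of a marker, so the tissue was not checked. Of 11 skeletal muscle markers 5 were named on the platform. TPM1 was a member, and TNNC2 was incomplete. MYL1, TNNT3 and PVALB had measured ratios and no feature at a ratio of 1. ACTA1, CKM, MYLPF, TNNI2, DES and MB were not named in the table used here, and only 56 of the 160 features at a ratio of 1 had a name, against 4391 (9.71%) of all features. The members are therefore the named portion of a larger set. By feature number, 12, 7, 15 and 14 members fell in 4 successive blocks of equal size. Of the 160 features 0 had a neighbouring number in the set, but with 0.354% of all features in it few neighbours can arise. Whether the numbers follow the layout of the slide is not known, so nothing is read from these counts.

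**Figure D2:**
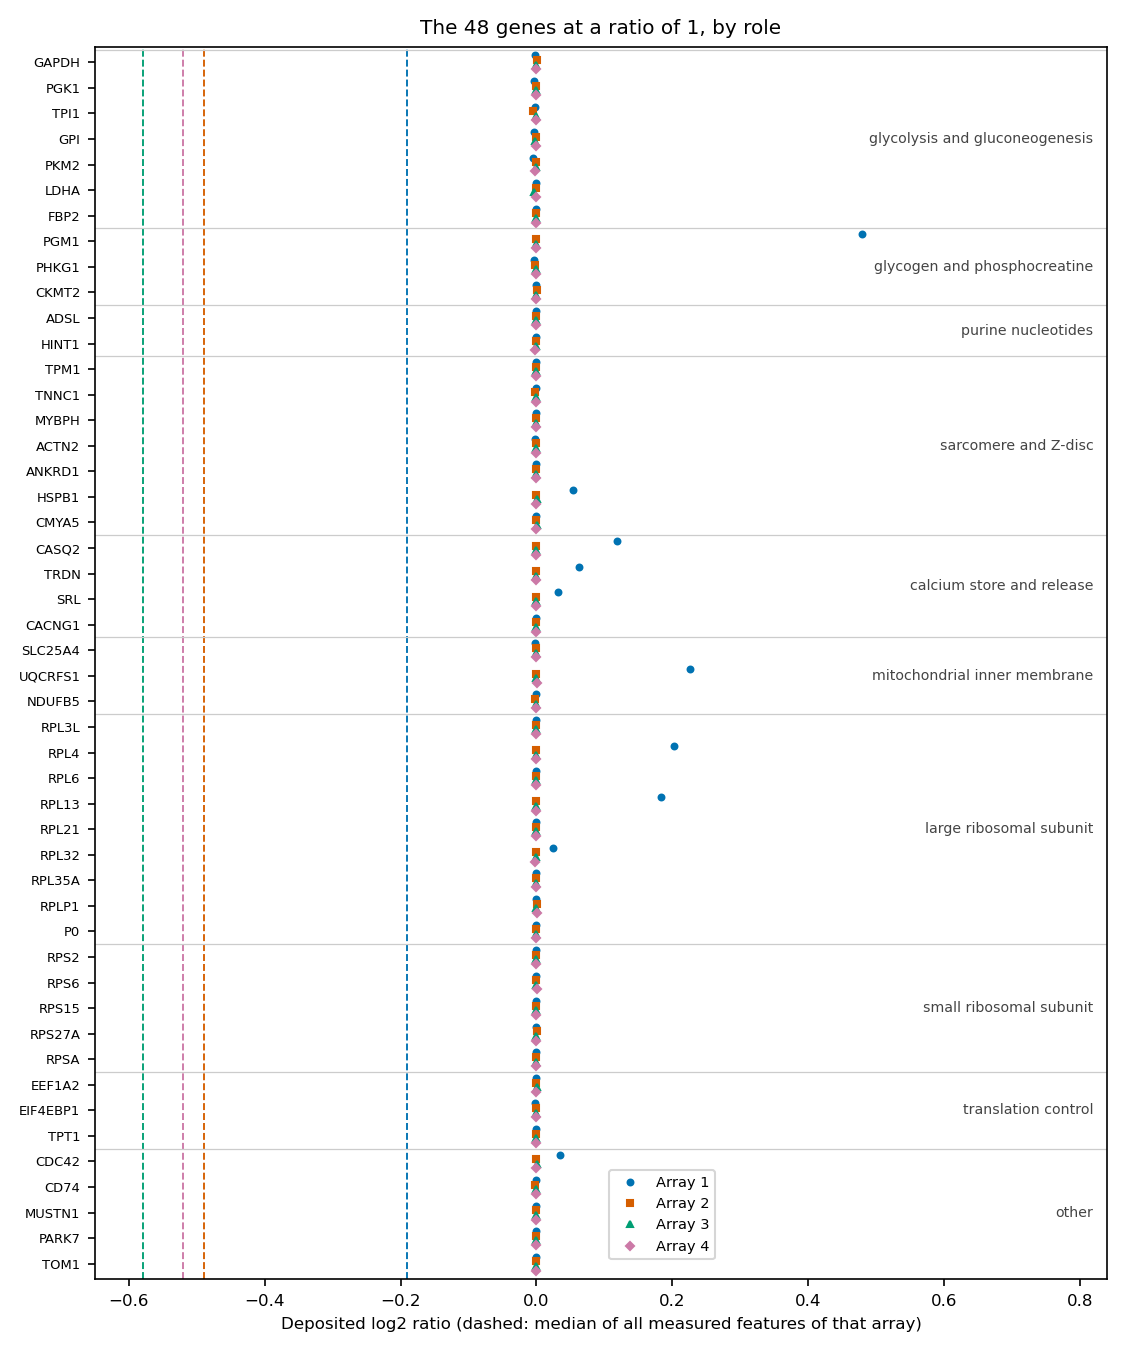
Each row is a gene, grouped by role, and each symbol is the deposited log2 ratio on 1 array. Dashed lines mark the deposited median of each array. All values lie within 0.005 of 0 except those of 10 genes on array 1, which reach from 0.024 (RPL32) to 0.480 (PGM1).

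The values themselves formed a narrow pile. Of 192 deposited values of the 48 genes, 182 were within the tolerance: 88 were exactly 0, 64 were -0.001, 19 were lower than that down to -0.005, and 11 were 0.001. The values nearest the edge of the tolerance were -0.005 for PKM2 on array 1 and for TPI1 on array 2, and the nearest outside it was 0.024 for RPL32 on array 1. The rule was met on 4 arrays by 38 members and on 3 arrays by 10. In each of these 10, array 1 was the exception and its value was positive, with a median of 0.09. The same held over all features: of 28 that met the rule on 3 arrays, 27 were off on array 1, all of them positive and at most 0.504, and 1 was empty on array 4. Array 1 was also the array whose deposited median lay nearest to 0.

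The values that chose the members can be described further but support nothing about their cause. Exact zeros were common elsewhere on the arrays: 2054 features were within the tolerance on a single array, 1773 of them with a value of exactly 0. Values of -0.001 numbered 248 on the 4 arrays together, and 231 belonged to the 160 features. A value other than 0 needs unequal readings in the dyes, while an exact 0 can come from a spot of any brightness, and whether the spots were bright was not tested. At least 1 value of 0.001 in size was present in 42 of the 48 members and a non-zero value within the tolerance in 45. The 3 without were TPM1, CASQ2 and RPL4.

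**Figure D3:**
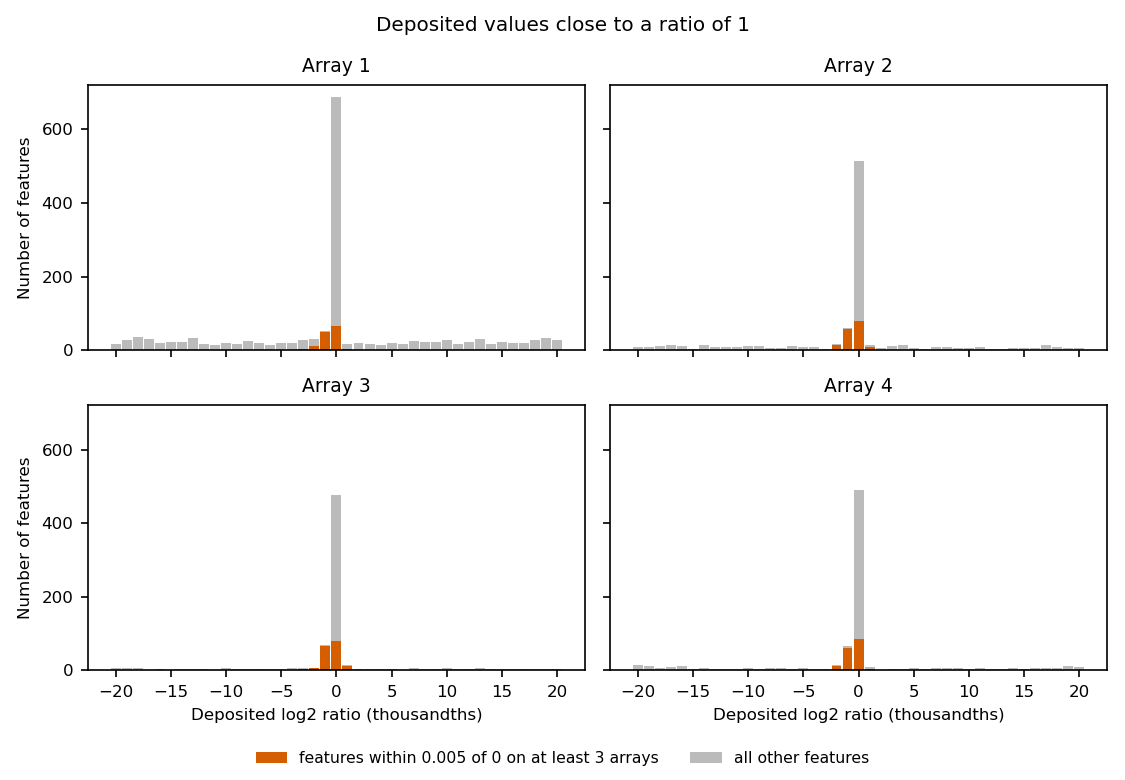
For each array, bars give the number of features at each deposited log2 ratio, in steps of 0.001 shown as thousandths, with features that met the rule on at least 3 arrays in orange and all others in grey. The bar at -1 is almost wholly orange, while the bar at 0 is mostly grey.

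Just short of the rule were 53 features within the tolerance on exactly 2 arrays, 5 of them named. In 42 of the 53 the values within the tolerance were exact zeros. RPL14 read 0.589, 0.017, -0.002 and 0.000, the giant sarcomere protein gene TTN read 0.338, 0.000, -0.071 and -0.001 in this feature, and ZA20D3 read -0.003, 0.001, -0.096 and -0.123. PRPSAP1 (0.000, 1.830, 0.000 and 2.720) and LOC421740 (4.087, 0.000, empty and 0.000) had exact zeros beside far larger ratios.

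A ratio of 1 did not mean the centre of the array. Between 12.5% and 33.7% of the measured features per array had a deposited value above 0, so a reading of 0 lay above most features. In the 8 genes with a second, complete feature, that feature read otherwise. A second feature that itself met the rule would not have counted as another, so this contrast is in part fixed in advance. None of its 32 deposited values was within 0.005 of 0, 29 were negative, and they ranged from -1.576 to 0.415. The second feature of PFKM read -0.682, -0.911, -1.576 and -1.508. That of MGP, a matrix protein that prevents calcification, read -0.578, -0.800, -0.964 and -0.899. The first features of both lay within 0.005 of 0. For EIF4A2, the RNA helicase of cap-dependent initiation, the second feature read 0.395, -0.095, -0.111 and -0.151, and its first feature read 0.441 on array 1. In HSP70, a chaperone listed as HSPA2 in RefSeq, the second feature read 0.280, -0.127, -0.240 and -0.269. The median of array 1 lay above those of the others. With each array median at 0, array 1 was the highest in the second features of EIF4A2, HSP70 and RPL5. It was not the highest in those of FZR1, PEBP1, PFKM, MGP and RPL7A, and it was the lowest in the last 2.

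**Figure D4:**
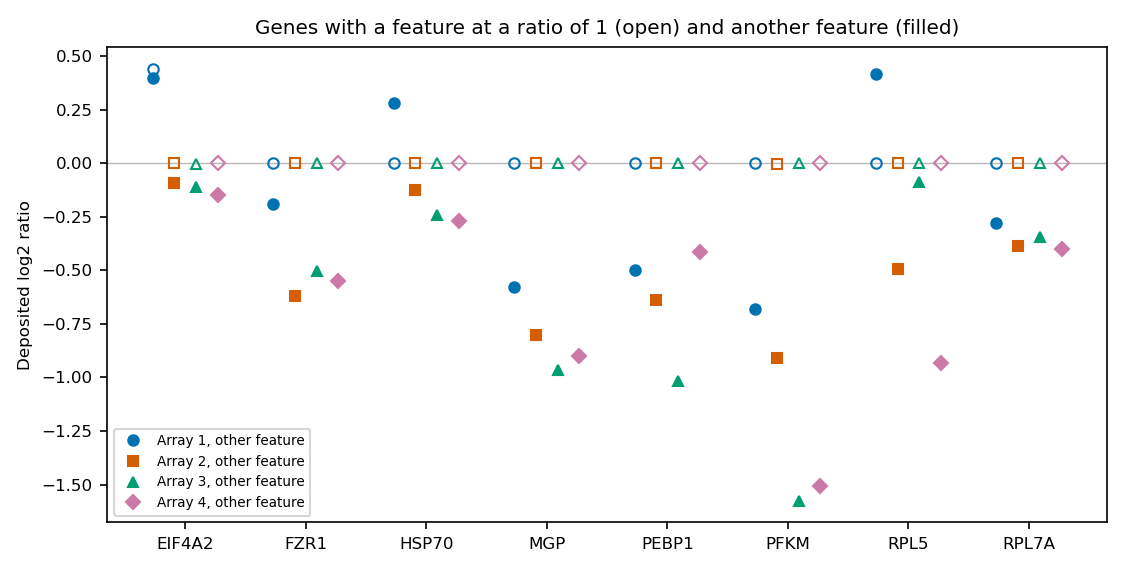
For the 8 genes left out of the set, open symbols are the deposited log2 ratios of the feature at a ratio of 1 and filled symbols those of the gene's other feature, for each array. The filled symbols spread from -1.576 to 0.415, while all open symbols lie within 0.005 of 0 except EIF4A2 on array 1.

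To set measured ratios beside the members, features at a ratio of 1 were set aside and each array was centred on its median. Named genes with a remaining feature measured on all 4 arrays were fitted with limma against 0. The excluded genes took part through their second features. A positive value then likely means higher in the high-efficiency muscle, because the labels place that RNA in channel 2, and every sign turns if the ratio was formed the other way. Of 3498 genes, 648 (18.5%) were higher and 214 (6.12%) lower at a Benjamini-Hochberg adjusted p under 0.05, 24.6% in all. On these values the second features of EIF4A2 (0.45 ± 0.10, SD, n = 4, adjusted p = 0.0133) and HSP70 (0.35 ± 0.09, adjusted p = 0.0194) were higher and those of MGP (-0.37 ± 0.04, adjusted p = 0.0115) and PFKM (-0.73 ± 0.31, adjusted p = 0.0295) lower by limma. With the values as deposited EIF4A2 stood at 0.01 and HSP70 at -0.09, and neither passed. The second features of PEBP1, RPL5, RPL7A and FZR1 did not pass on centred values, but with the values as deposited PEBP1 (-0.64), RPL7A (-0.35) and FZR1 (-0.47) were lower as well, which made 5 calls. As deposited, 1153 of all 3498 genes were called. Of the 4 calls on centred values, 2 were left without array 1, and 0 without array 2, 3 or 4.

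In several families the member was the form typical of muscle and a related gene had a measured ratio. A family list gave 8 families with a member and 12 measured relatives, and 4 further families with 5 relatives were added after the values were seen. Of the 17 relatives 4 were higher, 4 lower and 9 did not pass. Among all 3498 measured genes 18.5% were higher and 6.12% lower, and as deposited 9 were higher and 1144 lower. With the values as deposited 10 passed, all lower: the same LDHB, CKMT1A, MYBPC1 and MYBPC3, and also CKB (-0.47), TPM3 (-0.62), ACTN4 (-0.77), EEF1A1 (-0.49), CRYAB (-0.55) and FBP1 (-0.42). Which fibre or other cell a difference comes from cannot be seen in whole muscle, where fewer cells of a type and less RNA per cell cannot be told apart.

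Beside LDHA, the muscle-type lactate dehydrogenase, the heart-type LDHB read -0.897, -1.016, -0.954 and -1.078 with the array median at 0. It was lower on all arrays, 1.98-fold (-0.99 ± 0.08, limma adjusted p = 0.00586). Beside CKMT2, the ubiquitous mitochondrial creatine kinase CKMT1A read -0.609, -0.846, -0.727 and -0.734 and was 1.66-fold lower (-0.73 ± 0.10, adjusted p = 0.0078). The cytosolic brain-type CKB was spread around 0 (-0.083, 0.109, -0.157 and 0.018) and did not pass (adjusted p = 0.771). Both measured members of the myosin-binding family of MYBPH were lower, the slow MYBPC1 by 3.44-fold (-1.78 ± 0.25, adjusted p = 0.00705) and the cardiac MYBPC3 by 1.61-fold (-0.69 ± 0.19, adjusted p = 0.0138).

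For other pairs the relative lay near the array median. Beside EEF1A2, the widely expressed EEF1A1 read -0.028, -0.029, -0.095 and -0.060 (adjusted p = 0.408). Beside RPL3L, which in mammals takes the place of RPL3 in striated muscle, RPL3 read 0.215, -0.058, 0.021 and 0.126 (limma adjusted p = 0.441). Beside FBP2, the liver-type FBP1 read -0.106, 0.085, 0.046 and 0.079 (adjusted p = 0.758). Beside SLC25A4, the carrier SLC25A6 read 0.140, 0.155, 0.232 and 0.204 and passed narrowly as higher (0.18 ± 0.04, limma adjusted p = 0.0479), but its value as deposited was -0.26 and did not pass.

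Relatives of TPM1, ACTN2 and HSPB1 did not pass with the array median at 0. TPM3, a slow-muscle and cytoskeletal tropomyosin, stood at -0.18 ± 0.07 (adjusted p = 0.0652) beside TPM1, and the non-muscle ACTN4 at -0.33 ± 0.23 (limma adjusted p = 0.0915) beside ACTN2. The small heat shock proteins CRYAB (-0.11 ± 0.10) and HSPB2 (-0.12 ± 0.36) did not pass beside HSPB1, and HSPB2 read 0.416 on array 1 against -0.328, -0.309 and -0.266. Next to PHKG1, PHKB, another subunit of the same kinase, was higher (0.65 ± 0.10, adjusted p = 0.0088), with 0.21 and no call in the values as deposited. Next to CDC42, the GTPase RHOA was higher (0.33 ± 0.07, limma adjusted p = 0.0186; -0.11 as deposited) and RAC1 did not pass (adjusted p = 0.152). EEF1E1, which shares the name but not the function of EEF1A2, was higher (0.57 ± 0.05, adjusted p = 0.0078), with 0.13 and no call as deposited.

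**Figure D5:**
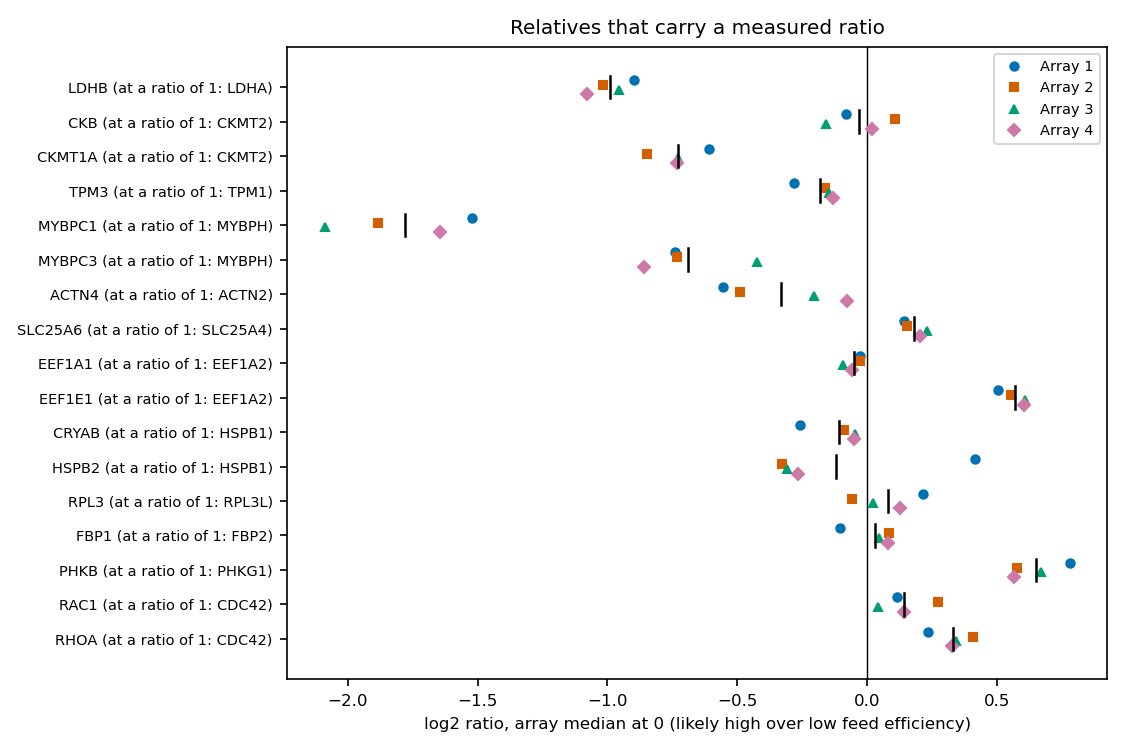
Symbols give the centred log2 ratio on each array for relatives of the described genes, with the family member at a ratio of 1 named in brackets, and black ticks mark the mean of the 4 arrays. LDHB, CKMT1A, MYBPC1 and MYBPC3 lie below 0 on all 4 arrays, and PHKB, EEF1E1, RHOA and SLC25A6 above it.

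The calls depended on which arrays were fitted, most of all on arrays 2 and 3, while the values of the called relatives moved little. MYBPC3 and SLC25A6 passed in no fit without 1 array, with lowest limma adjusted p of 0.0552 and 0.088. HSPB2, which was not called, moved from -0.12 to -0.30 without array 1. Without array 2 or array 3 none of the 17 relatives passed by limma, as only 4 and 5 of the 3498 genes then did (1060 and 1056 at an unadjusted p under 0.05). MYBPC1 then stood at -1.75 and -1.68 and PHKB at 0.67 and 0.64. Without array 1 there were 6 relatives called, beside 407 of all 3498 genes, and without array 4 there were 5, beside 207.

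The counts of the other genes in the lists are to be read against the 18.5% of all measured genes that were higher and the 6.12% that were lower. Of the 15 genes measured in the ribosomal list, 6 were higher and 9 did not pass (median 0.32, against 0.01 for all 3498 genes). These stand beside 14 members whose ratio cannot be known. Among the 6 was RPL14, with deposited values of 0.017, -0.002 and 0.000 on arrays 2 to 4. Among 18 measured translation factors 10 were higher and 8 did not pass (median 0.29). GNB2L1 was counted in both the ribosomal and the translation factor list. Among 15 measured respiratory chain genes 11 were higher and 4 did not pass (median 0.27). For calcium handling 5 of 13 genes were higher and 3 lower (median 0.25), and for the thin filament 6 of 14 were higher and 5 lower (median -0.10). In the thick filament list 6 of 12 genes were lower and 6 did not pass (median -0.48), and in the Z-disc list 2 of 14 were higher and 4 lower (median -0.12). In glycolysis 1 of 3 measured genes was higher and 1 lower, so most of that list had no ratio at all. With the values as deposited, which lower the median of all genes to -0.43, 1 gene of the ribosomal list was called higher and no gene of the other lists named here, while 9 genes were lower in the thick filament list, 8 in the thin filament list, 8 in the Z-disc list and 5 in the calcium list, with 1144 lower among all genes.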

How the data were processed

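RNA of breast muscle was compared on 4 two-colour arrays. The authors deposited 1 log2 ratio per feature and array, with 3 decimals. The scale was read from the values, and which dye is the numerator, how signals were scanned and how they were normalized were not given in the sources used here. Per the labels' protocols, Trizol served for extraction and 2 µg of RNA were used. A platform table named 4391 features with 1 symbol each, in all 4046 symbols, and platform symbols were used. RefSeq (assembly GRCg7b) gave a newer name for 5 members through a unique synonym: P0 became RPLP0, MYBPH MYBPHL, PGK1 PGK2, PKM2 PKLR and RPSA RPSAP58. No coordinates were used. Ribosomal symbols were matched by prefix, without S6 kinases, RPS19BP1 and RPL7L1, and the ribosomal list also held GNB2L1.

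Values at the ceiling of 16.61 (107 to 157 per array) were treated as not measured. For measured genes, features at a ratio of 1 were set aside, arrays centred on their median, features of a gene averaged, and an intercept fitted with limma 3.58.1 in R 4.3.3, two-sided, with Benjamini-Hochberg adjustment over 3498 genes at 0.05. In simulated data for the 3498 genes, the test found 51.0% of 100 changes of 1.5-fold and 60.0% of 100 changes of 2-fold, and it made 8 false calls. How many calls on the deposited ratios were false, and how many changes were missed there, was not tested. The number of arrays limits the precision, and p-values measure the spread between arrays, which may be partly technical. Members, lists and families were chosen with earlier results of these data known. All members are named. Values on each array are given for up to 3 members per list in list order, for members off on an array, and for genes with another feature, and relatives are those measured on all 4 arrays. Alternatives were other tolerances, numbers of arrays and symbols, values as deposited, features at a ratio of 1 kept or more of them set aside, values on 3 arrays, and each array left out.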

Additional observations from a re-analysis of the deposited data

Results flagged for a closer look

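In 2 of 25 genes with a measured ratio, 1 array lay far from the other 3, its gap to the nearest of them exceeding the critical share of the whole range in Dixon's test for 4 samples. Chance gives about 1 in 20. HSPB2 stood out on array 1 (centred log2 ratio 0.416) and the second feature of MGP on array 2 (-0.314). For the members the same measure is a description, because the rule fixes at least 3 arrays near 0. Those whose values spanned 0.01 or less were left out, since their steps are near the rounding of the deposited values. The other 10 stood out on array 1, with deposited log2 ratios of 0.118 for CASQ2, 0.034 for CDC42, 0.054 for HSPB1, 0.48 for PGM1, 0.183 for RPL13, 0.024 for RPL32, 0.202 for RPL4, 0.032 for SRL, 0.063 for TRDN and 0.226 for UQCRFS1.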

How the results depend on the processing

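The set of members did not depend on the tolerance but did on the number of arrays. With a tolerance of 0.002 or 0.01 and with updated symbols there were again 48 members, with the same 48 genes for both tolerances. On all 4 arrays 38 remained, on at least 2 arrays 52, and with other features allowed 56. Without array 1 the same 48 genes met the rule, and without array 2, 3 or 4 there were 38, each time without the 10 genes that were off on array 1, among them CASQ2, TRDN and SRL of the 4 calcium genes. Features at a ratio of 1 numbered 132 to 213 under these settings, and members in a list 31 to 47. Had the 48 genes been kept as measured, limma would have called all 48 higher, at 0.44 to 0.56 with the array median at 0 (adjusted p from 0.00875 to 0.0291). This follows from the construction, because a deposited 0 lies above the array medians. With all features at a ratio of 1 kept, those of the 8 excluded genes included, 921 genes were called (699 higher and 222 lower), against 862 (648 and 214).

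The limma calls were 678 with values on at least 3 arrays and 1153 as deposited (9 higher), and between 4 and 407 without 1 array: 407, 4, 5 and 207 without arrays 1, 2, 3 and 4. Values as deposited turned the sign of SLC25A6 (-0.26), RPL3 (-0.36), FBP1 (-0.42), RAC1 (-0.30), RHOA (-0.11) and the second features of HSP70 (-0.09), RPL5 (-0.28) and RPL7A (-0.35), since this setting lowers all genes. CKB ranged from -0.07 to 0.01 (without array 3) and the second feature of FZR1 from -0.06 to 0.01 (without array 2) when 1 array was left out. Each array already is a ratio within a pair, so the fit against 0 is itself the paired analysis. Signal over background was not analysed here, so dim features were not filtered.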

Other observations

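RPL14, a protein of the large ribosomal subunit, was called higher among the measured genes (0.59 ± 0.13, SD, n = 4, limma adjusted p = 0.011). Its deposited ratios of 0.589, 0.017, -0.002 and 0.000 were within 0.02 of 0 on arrays 2 to 4, with the highest value on array 1, like those of the members RPL4 and RPL13. Its centred values on arrays 2 to 4 (0.503, 0.575 and 0.515) are therefore close to the array medians with the sign turned. The same arithmetic holds for any gene with a deposited value near 0, and the cause of these readings was not tested. ZA20D3 was also called higher (0.39 ± 0.14, limma adjusted p = 0.0286) with 2 of its values within the tolerance, and for these the same holds. When features within the tolerance on 2 arrays were set aside too, an alternative chosen after seeing the data, 860 genes were called, 646 of them higher, against 862 and 648.

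The second feature of EIF4A2 read 0.395 on array 1, and its feature at a ratio of 1 read 0.441 there. Both features were positive on that array by a similar amount, but this was not so for the other excluded genes. In HSP70 and RPL5 the second feature read 0.280 and 0.415 on array 1, and the feature at a ratio of 1 read 0.000. In the remaining excluded genes the second feature was negative on array 1.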
